A study of Rattus norvegicus with 8 samples.

Results

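The microRNA content of the renal cortex was described in the sham-operated (SHAM) rats, which formed 2 of the 8 arrays of a rat study of nephrectomy, of the mineralocorticoid deoxycorticosterone acetate with a high-sodium diet, and of extracellular vesicles. These were male rats that underwent a sham operation and received chow with 0.50% sodium. The labels name neither deoxycorticosterone acetate nor vesicles for them and do not say whether they received the oil vehicle. The protocol places the end of the experiment 9 weeks after nephrectomy of the other groups, and the sample descriptions name 8 weeks. Strain and age are not given in the sources used here. Each array, SHAM 1 and SHAM 2 below, received 100 ng of total RNA from the cortex of a sham animal, and the labels do not say whether animals were pooled. The miRNAs described are the 228 of 758 rat miRNAs on the array (30.1%) that the scanner software marked as detected on both arrays. With 1 group of 2 arrays there is no contrast, so no test was made and every value below is a description. The labels name the 2 samples as replicates without saying how they were kept apart, so their spread may be partly technical.

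A miRNA is cut from a hairpin precursor as a short duplex. One strand, from the 5p or the 3p arm, is usually kept in an Argonaute protein and the other is mostly discarded. The kept strand finds messenger RNAs through its seed, bases 2 to 8, so miRNAs with the same seed form a family with overlapping targets. In kidney cortex, which consists largely of proximal tubule, the miR-192, miR-194, miR-200, miR-30 and miR-10 families are known as epithelial miRNAs, whereas miR-126 marks endothelium and miR-143 and miR-145 mark smooth muscle.

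The mature sequences of the 5 seed families with the most signal are shown because these 19 miRNAs held 49.1% of all signal of the detected miRNAs. They are from RefSeq (assembly GRCr8), written 5′ to 3′, with the seed in capitals. RefSeq sequences were matched by name for 206 of the 228 miRNAs, and the 22 others held 6.36% of the signal. The families run from let-7 through miR-29, miR-26 and miR-30 to miR-23.
let-7a-5p: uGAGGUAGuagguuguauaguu
let-7b-5p: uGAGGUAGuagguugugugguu
let-7c-5p: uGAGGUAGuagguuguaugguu
let-7d-5p: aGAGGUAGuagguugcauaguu
let-7e-5p: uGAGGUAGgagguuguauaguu
let-7f-5p: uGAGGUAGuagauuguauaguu
let-7g-5p: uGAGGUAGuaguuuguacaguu
let-7i-5p: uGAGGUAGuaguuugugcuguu
miR-98-5p: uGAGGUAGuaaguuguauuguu
miR-29a-3p: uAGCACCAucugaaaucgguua
miR-29b-3p: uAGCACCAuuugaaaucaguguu
miR-29c-3p: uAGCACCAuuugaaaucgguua
miR-26a-5p: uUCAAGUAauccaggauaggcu
miR-26b-5p: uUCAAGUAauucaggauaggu
miR-30a-5p: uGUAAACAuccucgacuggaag
miR-30c-5p: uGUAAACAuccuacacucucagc
miR-30e-5p: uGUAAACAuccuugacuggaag
miR-23a-3p: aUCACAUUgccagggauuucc
miR-23b-3p: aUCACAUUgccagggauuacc

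The signal of a miRNA is the processed signal of its probes, in the scanner's linear units and after background subtraction, averaged over spots and summed over probes. Its share is its percentage of the summed signal of the 228 miRNAs on the same array. Signals of different miRNAs also depend on how well each probe binds, so an order of signal is not an order of molecule numbers. The 228 miRNAs summed to 102312 on SHAM 1 and 95001 on SHAM 2, which was 98.1% and 98.2% of the signal of all 758 miRNAs with negative values taken as 0. No spot of a miRNA was saturated on either array.

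The signal was concentrated in few miRNAs. The 10 brightest held 40.7% ± 0.45 (SD, n = 2), and 15 miRNAs were enough for 50% of the signal on each array. On SHAM 1, 68 miRNAs reached 90%, and on SHAM 2, 67 did. By mean share, 30 miRNAs lay at 1% or more and held 70.9% together, 68 lay between 0.1 and 1% with 23.2%, and the other 130 held 5.85%. The same 10 miRNAs were the brightest on both arrays, as were 19 of the 20 brightest and all of the 50 brightest.

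**Figure D1:**
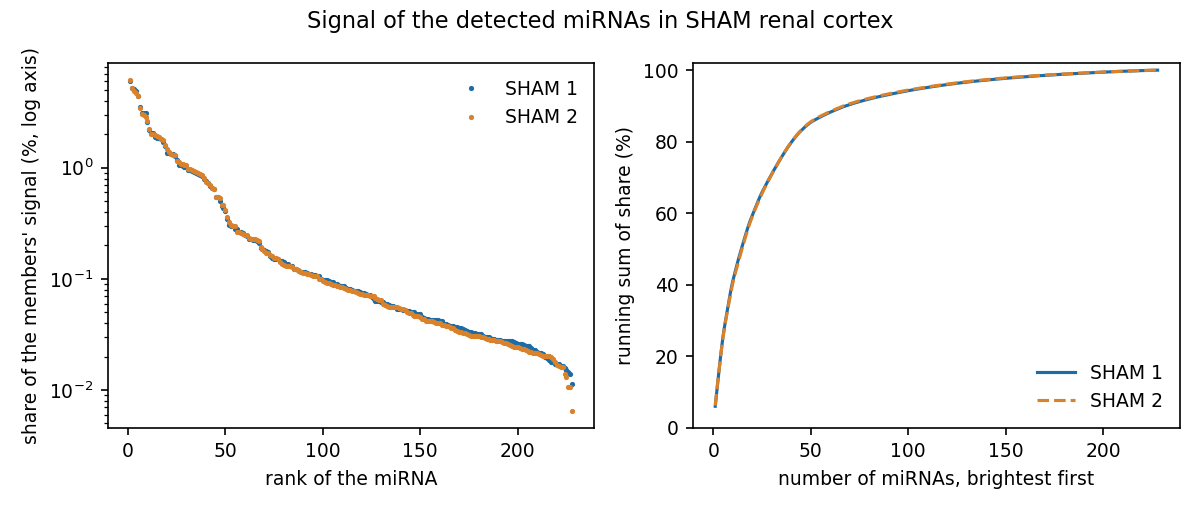
Left, the share of the members' signal (percent, log axis) against the rank of each of the 228 miRNAs on SHAM 1 and SHAM 2. Right, the running sum of share (percent) over the miRNAs from the brightest down; both curves pass 50% at 15 miRNAs and 85.4% and 85.6% at 50.

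The let-7 family, which promotes differentiation and represses Lin28 and Hmga2, led the profile. All 9 miRNAs of the array with this seed, counting miR-98-5p, were detected, and together they held 24.5% ± 0.06 of the signal (SD, n = 2), at 24.4% on SHAM 1 and 24.5% on SHAM 2. let-7c-5p was the brightest miRNA of both arrays, with a signal of 6166 on SHAM 1 and 5900.2 on SHAM 2. let-7b-5p followed at 5295 and 4956, and let-7a-5p stood at 4994 and 4625. let-7c-5p differs from let-7b-5p and from let-7a-5p at 1 base each. let-7f-5p had 3615 and 3291, and let-7g-5p 2085 and 1893. The family then reached down through let-7d-5p at 1373 and 1251, let-7e-5p at 696 and 666 and let-7i-5p at 676 and 624 to miR-98-5p at 113 and 103. Its members therefore spanned more than an order of magnitude within each array. The sequences of let-7c-5p and let-7b-5p lie next to each other at chr7:118683636-118684119 on the plus strand, a span that also holds let-7b-3p. let-7a-5p, let-7f-5p and let-7d-5p share chr17:16320145-16322348. Further loci lie on chromosome 11 for let-7c-5p, chromosome 8 for let-7a-5p and chromosome X for let-7f-5p, and the signal cannot be assigned to one locus.

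The miR-29 family, whose best-known targets are collagens and other matrix genes, held 9.89% ± 0.53 (SD, n = 2), the second largest share of a seed. miR-29a-3p had a signal of 5202 on SHAM 1 and 4425 on SHAM 2, miR-29b-3p 3189 and 2823.5, and miR-29c-3p 2113 and 1794. All 3 were lower on SHAM 2 by more than the general offset of that array, and the share of the family was 10.3% on SHAM 1 and 9.52% on SHAM 2. No other family of the 5 differed between the arrays by as much in percentage points. miR-29b-3p is made from loci of its own beside both relatives. It lies with miR-29a-3p at chr4:60617968-60618364 on the minus strand and with miR-29c-3p at chr13:109098882-109099433 on the plus strand, and its signal cannot be assigned to either.

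The 3 remaining families were each close between the arrays. miR-26, which represses Ezh2, held 5.75% ± 0.03, with miR-26a-5p at 4505 and 4200.4 and miR-26b-5p at 1400.5 and 1243. The miR-30 seed, common in podocytes and tubules, held 4.86% ± 0.11 in 3 sequence-matched members. miR-30a-5p was the brightest of these at 2639 and 2527, ahead of miR-30c-5p at 1386 and 1325 and miR-30e-5p at 862 and 837. miR-30b-5p and miR-30d-5p were grouped by name alone and brought the miR-30 5p arms to 5.93% ± 0.14. miR-23, transcribed with miR-27 and miR-24, held 4.14% ± 0.08, with miR-23b-3p at 2229.7 and 2123 and miR-23a-3p at 1948 and 1858. Their cluster partners, which the naming rule does not cover, were dimmer: miR-24-3p, made from both clusters, at 1599 and 1508, miR-27b-3p at 1056 and 996 and miR-27a-3p at 923 and 873.

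Across all 206 sequence-matched miRNAs there were 168 seeds, of which 20 were shared by 2 or more of them. These 20 covered 58 miRNAs and 60.2% of the signal, while 148 seeds had 1 matched member each. The 22 detected miRNAs without a matched sequence, with 6.36% of the signal, were not counted. Any of them may share a counted seed, so the number of shared seeds and their signal are lower bounds. Among seeds with 2 or more matched members, the 5 families were followed by the miR-16 seed, which restrains the cell cycle, with 5 matched members and 2.68%, the miR-27 seed with 1.95% and the miR-107 and miR-103 seed with 1.92%. The miR-17 seed, named for a miRNA of a cluster that promotes proliferation, had 5 matched members from several clusters but 0.831% of the signal. Near-identity limits what such sums resolve: 26 matched miRNAs, with 41.4% of the signal, had another matched miRNA within 1 mismatch, and 39 had one within 2. How much label one such miRNA left on the probes of another was not tested.

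Among the 20 brightest miRNAs, 11 came from 5p arms and 9 from 3p arms. Those not yet named included miR-22-3p at 3183 on SHAM 1 and 2745 on SHAM 2, and miR-21-5p, known for its rise in kidney injury and fibrosis, at 1898 on each. miR-10a-5p, encoded in a Hox cluster, had 1875 and 1843, miR-16-5p 1848 and 1705, and miR-130a-3p 1756 and 1673. The spots of the brighter probe of a miRNA varied by a median coefficient of variation of 5.48% among these 20 and of 8.48% among all 228. The 2 arrays limit the precision, and of these 20 the largest differences between them, after scaling, were log2 -0.17 for miR-29c-3p and miR-29a-3p and -0.15 for miR-22-3p (SHAM 2 minus SHAM 1).

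**Figure D2:**
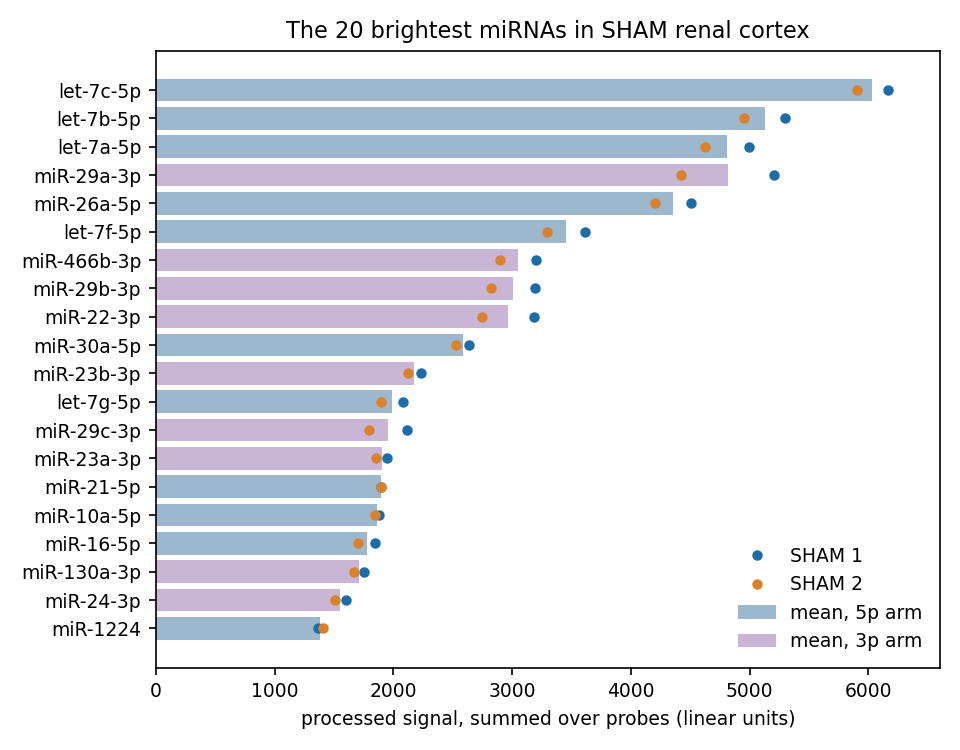
Processed signal (linear units) of the 20 miRNAs with the highest mean share; bars show the mean of both arrays, coloured by arm, and points show SHAM 1 and SHAM 2. let-7c-5p reaches 6166 and 5900.2, and the twentieth, miR-1224, 1368 and 1404.

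The miR-466 3p arms are shown because they are largely CA and UA repeats, and miR-1224 because it is rich in G, with the seed in capitals.
miR-466b-3p: aUACAUACacacacacauacac
miR-466b-2-3p: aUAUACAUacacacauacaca
miR-466c-3p: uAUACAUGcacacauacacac
miR-1224: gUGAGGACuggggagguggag
In mouse the miR-466 family lies in an intron of Sfmbt2. Its 3 detected 3p arms held 4.94% ± 0.07 of the signal (SD, n = 2), and miR-466b-3p ranked seventh with 3202 on SHAM 1 and 2899 on SHAM 2. It had 4 probes on the array, against 2 for most miRNAs, and its brightest probe carried 31.7% of its sum. Its share was 3.09% as a sum over probes, but 1.58% with probes averaged or with the software's total signal, and under both it was no longer among the 10 brightest.  miR-466b-2-3p had 1029 and 932, and miR-466c-3p 875 and 817. Both miR-466b genes lie at chr17:72942475-72945568 on the minus strand of GRCr8. miR-1224, a miRNA made from a short intron, has 13 G among its 21 bases and stood at 1368 and 1404.

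The 5p arms held 56.0% ± 0.5 of the signal in 107 miRNAs and the 3p arms 42.1% ± 0.6 in 114 (SD, n = 2). The remaining 7 miRNAs, with 1.94%, could not be placed on an arm by name or RefSeq hairpin. Both arms were detected at the same rate, 30.2% of 354 miRNAs for 5p and 30.1% of 379 for 3p. The larger share of 5p lay with let-7: without the 9 miRNAs of that seed, 5p arms held 41.7% of the rest and 3p arms 55.7%.

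The array carried 314 pairs of a 5p and a 3p arm, matched by hairpin name or by RefSeq hairpin gene. For 144 pairs 1 arm was detected, in 72 the 5p and in 72 the 3p arm. An arm with 2 partners counts in each pair, as let-7f-5p and miR-24-3p did. Both arms were detected in 30 pairs and neither in 140. The 30 hold 28 different 5p arms, since miR-30c-5p and miR-466b-5p were each paired with 2 3p arms. Where both arms had to be well above background on both arrays, 17 pairs were left. Among the 30, the 5p arm was brighter on both arrays in 18 and the 3p arm in 12, and the order never differed between SHAM 1 and SHAM 2. The brighter arm exceeded the other by a median of 9.72-fold in mean signal, by over 10-fold in 15 pairs and by under 2-fold in 4. These folds and the order of the arms set 2 probe sets against each other. They carry the difference in binding and in number of probes, since probes are summed.

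Among pairs with both arms detected, the most one-sided in summed signal was miR-22, whose 5p arm had 1 probe, against 2 for most miRNAs. Its 3p arm had 3183 on SHAM 1 and 2745 on SHAM 2, against 17.5 and 15.5 for its 5p arm. miR-10a leaned to 5p, at 1875 and 1843 against 21.9 and 18.8, as did let-7b, at 5295 and 4956 against 77.0 and 66.1. miR-21 had 1898 and 1898 for 5p and 36.7 and 27.1 for 3p. miR-192 had 1030.2 and 1004 for 5p and 24.4 and 24.2 for 3p. Other pairs kept clear signal on both arms. miR-30a had 2639 and 2527 for 5p and 225 and 213 for 3p, miR-466b 460.1 and 437 for 5p and 3202 and 2899 for 3p, and miR-199a, common in fibroblasts, 164 and 154 for 5p and 420.3 and 392 for 3p. The 3p arm was also the brighter one in miR-29c, at 2113 and 1794 against 87.4 and 80.9, and in miR-200b, at 1081 and 1021 against 19.2 and 17.2. In miR-140, of cartilage, it stood at 228 and 216 against 109 and 106, and in miR-339 at 148 and 124 against 11.53 and 6.12.

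The 4 pairs under 2-fold are named although they were picked out by these values. In miR-324 the arms stood at 96.9 and 90.7 for 5p and 177 and 161 for 3p. In miR-139 they were at 17.6 and 15.2 for 5p and 15.3 and 12.4 for 3p. The hypoxia-induced miR-210 is known mainly by its 3p arm, yet its 5p arm was the brighter one here, at 99.1 and 84.6 against 51.3 and 53.7. miR-1839 had nearly level arms, at 43.9 and 41.3 for 5p and 43.3 and 38.0 for 3p.

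**Figure D3:**
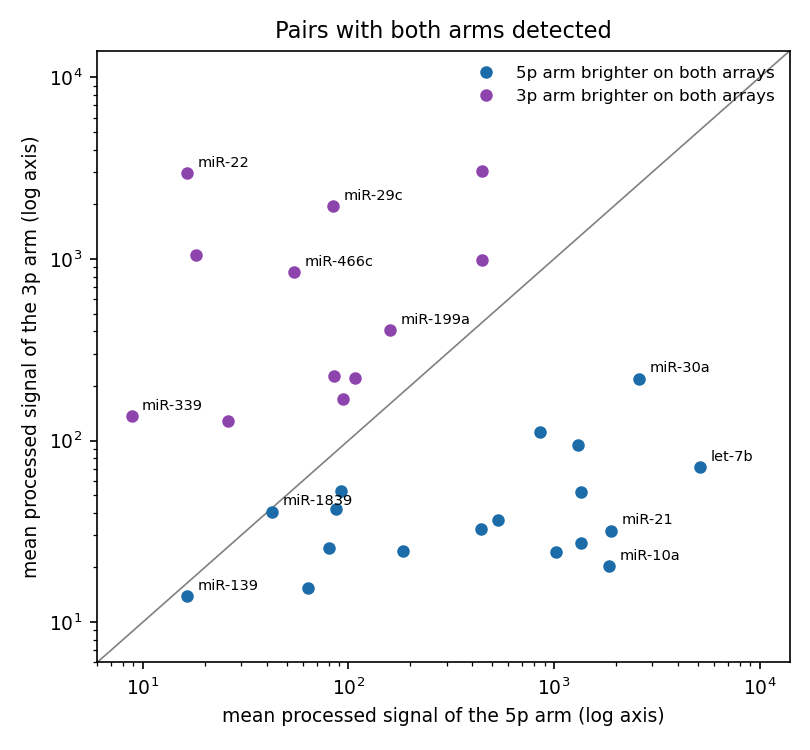
Mean processed signal of the 3p arm against that of the 5p arm (log axes) for the 30 pairs with both arms detected; the line marks equal signal. 12 pairs, with miR-22 farthest at 2964 against 16.5, lie above the line and 18 below it. Signals are summed over probes, and the 5p arm of miR-22 had 1 probe.

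The label of renal cortex was set against miRNAs known from kidney epithelium and from other cells and tissues. Over the whole array 228 of 758 miRNAs (30.1%) were detected, the rate beside which the counts of these lists stand. Of 39 miRNAs of the kidney epithelium list on the array, 28 were detected and 22 of these were well above background on both arrays. They held 14.2% ± 0.3 of the signal (SD, n = 2). Within this, the miR-30 5p arms held 5.93% and the miR-10 5p arms 2.81%. How much of the signal of these miRNAs came from cells other than epithelium was not tested. Beside the miR-30 and miR-10a members above, miR-10b-5p had 933 on SHAM 1 and 895 on SHAM 2. miR-192-5p, enriched in proximal tubule, had 1030.2 and 1004 and its cluster partner miR-194-5p 749.8 and 697. Both lie at chr1:212994038-212994296 on the plus strand, and miR-194-5p has a further locus on chromosome 13. The miR-200 family holds cells epithelial by repressing the Zeb transcription factors. Of its members, miR-200b-3p had 1081 and 1021, miR-200a-3p 812 and 764 and miR-429 659 and 618. The family members of the other cluster were far dimmer, with miR-141-3p at 82.9 and 75.5 and miR-200c-3p at 22.4 and 18.2. The 3 Hox-cluster miRNAs miR-196b-5p, miR-196a-5p and miR-196c-5p gave 217 and 210.0, 148 and 134, and 90.8 and 82.5. miR-204-5p, of kidney and retinal epithelium, was at 60.3 and 61.1. miR-215, which shares its seed with miR-192-5p, was not detected, at 19.5 and 19.9, and the 10 others not detected were the opposite arms of detected miRNAs.

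The sequences of miR-10a-5p and miR-10b-5p are shown because the RefSeq mature forms start at different bases, which gave them different seeds and placed them in different families above.
miR-10a-5p: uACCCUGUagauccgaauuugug
miR-10b-5p: cCCUGUAGaaccgaauuugugu
Taken by name, the miR-10 5p arms held 2.81% ± 0.10 of the signal (SD, n = 2).

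Vessel and stroma miRNAs were also detected. miR-126a-3p, of endothelium, had 1299.9 and 1231, miR-143-3p, of smooth muscle, 971 and 913, and its cluster partner miR-145-5p 117 and 108. The 3 held 2.35% together. Of the fibroblast and mesenchyme list 6 of 8 miRNAs were detected with 2.79% of the signal. miR-21-5p, which many other cells express too, alone held 1.93% of the signal. miR-199a-3p stood at 420.3 and 392 and miR-214-3p at 228 and 216.

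Blood cell miRNAs were present at low signal. The erythrocyte list had 2 of 5 detected and 0.278% of the signal, with miR-451-5p, which is cut by Argonaute 2 and not by Dicer, at 271 and 244 and miR-486 at 17.0 and 15.9. miR-144-3p, made from the same transcript as miR-451, was not detected at 3.86 and 2.34. Of the leukocyte list 5 of 12 were detected, with 0.585% of the signal, or 0.938% under normexp with an offset of 50. miR-146a-5p, induced by NF-κB, had 308 and 284, and miR-150-5p of lymphocytes 156 and 146. The myeloid miRNA miR-223-3p had 73.5 and 67.2, and miR-142-3p, made throughout the blood lineages, 43.8 and 44.8. miR-155-5p of activated leukocytes was detected at 16.2 and 15.6 but was not well above background on either array.

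Lists of tissues outside the kidney held little. None of 12 nerve miRNAs was detected, and the highest of them averaged 12.5. Of 15 striated muscle miRNAs 3 were detected on both arrays, miR-206-3p at 64.0 and 50.9, miR-499-5p at 53.2 and 44.3 and miR-133b-3p at 20.4 and 19.3. The defining miR-1-3p was at 2.40 and -0.12 and miR-133a-3p at 4.62 and 2.02. miR-1-5p of the same list, at 42.7 and 41.3, was detected on SHAM 2 alone. In liver, miR-122-5p is the abundant arm; here it was not detected at 9.08 and 7.39, and miR-122-3p was detected at 28.1 and 27.8. Of 21 testis miRNAs 1 was detected, miR-465-5p at 95.1 and 84.4. Of the embryonic cell list 2 of 10 were detected, miR-290 at 37.8 and 33.2 and miR-291a-3p at 33.6 and 30.6. Of 6 endocrine miRNAs 2 were detected, miR-7a-2-3p at 43.0 and 39.9 and miR-375-3p of endocrine cells at 18.2 and 19.2. Not detected were miR-7a-5p at 9.19 and 10.7, miR-7a-1-3p at 25.7 and 25.3, miR-7b and miR-375-5p. In bulk cortex, few cells with much of a miRNA and many cells with little cannot be told apart.

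**Figure D4:**
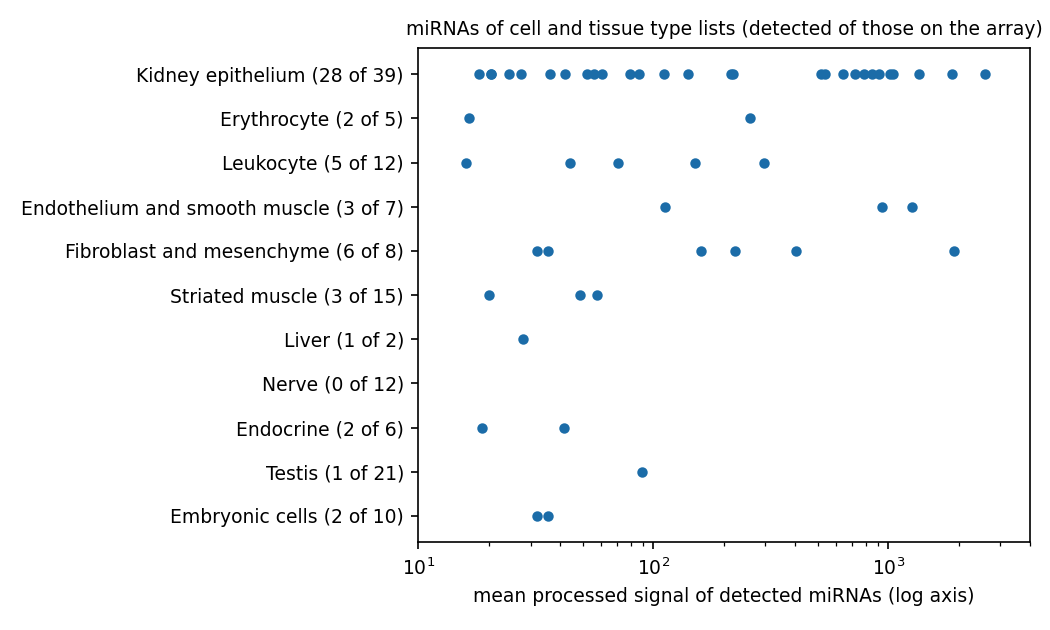
Mean processed signal (log axis) of each detected miRNA in the lists for cells and tissues, with the number detected of those on the array beside each list. Kidney epithelium has 28 of 39 detected and reaches 2583, whereas nerve has 0 of 12. Over the whole array 228 of 758 miRNAs (30.1%) were detected.

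The arrays gave nearly the same profile. Across the 228 miRNAs the log2 signals correlated with r = 0.998 (Spearman 0.996); miRNAs are not independent replicates, and the selection asked for detection on both arrays. SHAM 2 was dimmer for 206 miRNAs, and the median difference over all 228 was -0.12 on the log2 scale (SHAM 2 minus SHAM 1). After each array was divided by its 75th percentile over the probes of the 228 miRNAs, which was 117 on SHAM 1 and 112 on SHAM 2, the median absolute difference was 0.07, against 0.12 unscaled, 0.044 after quantile normalization and 0.030 under normexp. The 75th percentiles differ by less than the median shift, so part of that shift stays in the scaled differences. The scaled median absolute difference was 0.05 in the brighter 114 miRNAs and 0.12 in the dimmer 114. All 13 miRNAs that differed by over 0.3 were among the dimmer ones. The largest differences belonged to miR-339-5p (11.53 on SHAM 1 and 6.12 on SHAM 2), miR-374-5p (29.2 and 19.3), miR-338-5p (44.2 and 29.6), miR-34c-3p (14.7 and 10.03) and miR-874-3p (14.3 and 10.1). All 5 were lower on SHAM 2 and each of them has 4 probes.

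**Figure D5:**
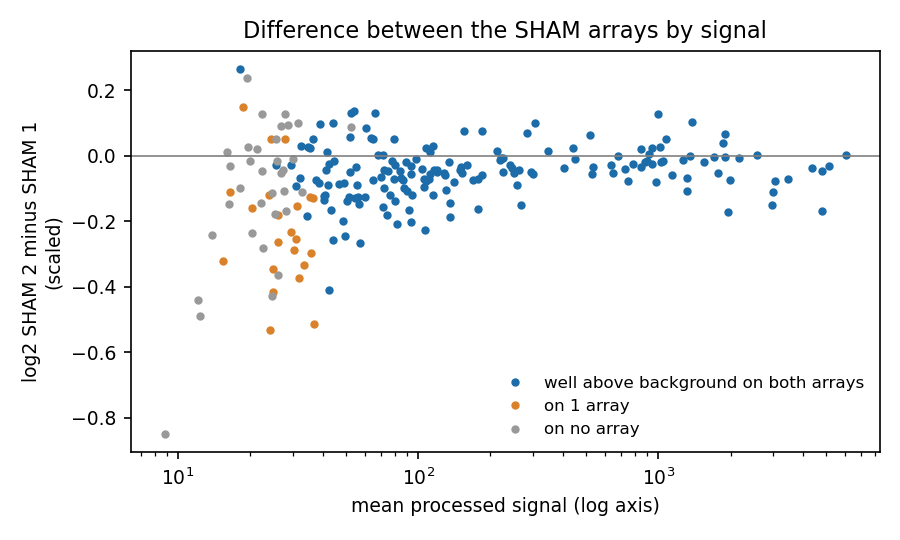
Log2 difference SHAM 2 minus SHAM 1 after scaling, against the mean processed signal (log axis), for the 228 miRNAs, coloured by the number of arrays on which they were well above background. Dim miRNAs spread from -0.85 to 0.26, whereas those at a signal of 1000 or more lie within 0.2 of 0.

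Detection had a soft edge. SHAM 1 had 239 miRNAs detected and SHAM 2 had 232. 11 were detected on SHAM 1 alone, 4 on SHAM 2 alone, and 515 on neither. The dimmest detected miRNAs were miR-339-5p, miR-874-3p and miR-34c-3p, with the values above. The brightest without detection on both arrays were miR-1-5p at 42.7 and 41.3, detected on SHAM 2 alone, miR-191a-3p at 32.8 and 29.0 and miR-350 at 28.8 and 29.3. In all, 87 of the 530 miRNAs left out had a mean signal above the dimmest one kept. The software decides by the error of each probe, and those errors were not examined here. miR-1-5p, miR-191a-3p and miR-350 have 4 probes each, as do 21 of the 228 detected miRNAs. Why these 3 were left out was not tested. Of the 228 miRNAs, 172 were well above background on both arrays, 22 on 1 and 34 on neither.

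Each miRNA was read by few probes. Of the 228, 202 had 2 probes, 21 had 4, 4 had 3 and 1, miR-22-5p, had 1. The brighter probe carried a median of 63.6% of the sum, and in 222 miRNAs it was the same probe on both arrays. In 9 miRNAs a single probe held at least 90% of the signal, among them miR-152-3p and miR-375-3p of the lists above.

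The bright miRNAs shared sequence traits that the selection had not used. Of the 43 sequence-matched miRNAs among the 50 brightest, 30 (69.8%) began with U, the base that Argonaute proteins favour at the 5′ end. Among the 163 dimmer ones 70 did (42.9%), and among 478 miRNAs not detected on both arrays 148 did (31.0%). Members of a family often share their first base, as miR-29a-3p, miR-29b-3p and miR-29c-3p do, so these counts are not of independent miRNAs. A link of the first base to Argonaute was not tested. The median GC content was 43.5% in the 43 bright miRNAs, 50% in the 163 dimmer ones and 47.6% in the 478 others. Across the 206 miRNAs GC content correlated with log2 signal at r = -0.35 (Spearman -0.33) and length at r = 0.09; these points share families and arrays, and the labelling and probe binding of a miRNA also depend on its sequence. The part of that dependence in these values was not tested.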

How the data were processed

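Total RNA (RIN above 8.0) from renal cortex was labelled with Cy3 at the 3′ end, per the labels' protocols. The deposited scanner files of 1-colour arrays (design 070154) were made with Agilent Feature Extraction 11.5.1.1, per the file headers. They give each spot's processed signal as an intensity that the authors' software background-subtracted, without normalization between arrays. The series table repeats these values (largest difference 0.0). Each array had 12128 spots of 1806 probes, with 4 to 16 spots a probe.

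Spots with outlier flags (8.29% on SHAM 1 and 8.82% on SHAM 2) were left out, spots were averaged per probe and probes summed per miRNA. Detection is the software's call. A miRNA counted as well above background where 1 probe had that flag on at least 0.5 of its spots. Only the difference between the arrays was scaled, by the 75th percentile over the probes of the detected miRNAs. Families share bases 2 to 8 of the RefSeq sequence (GRCr8), matched by name for 684 of 758 miRNAs. The header's build, rn4, differs, so all positions are RefSeq's. Loci within 10 kb on 1 strand were joined.

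The miRNAs named were the 20 brightest, members of the 5 brightest seed families and of the lists, the 5 with the largest difference between arrays, 3 on each side of the detection limit, and the brightest arm pairs, not all of which are described. The selection and lists were chosen with earlier results of these data known. The other settings tried changed the spot average, outlier flags, probe sum, background correction, detection, scaling and arrays used. Background correction by normexp (offset 50, limma 3.58.1, R 4.3.3) used the median spot signal, where the mean had been planned. Other steps used Python 3.11.15 with pandas 2.3.3 and were tested on simulated data.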

Additional observations from a re-analysis of the deposited data

How the results depend on the processing

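No paired analysis was possible because 1 group was described and no contrast was fitted. The let-7 seed had the largest share under every setting run, and at least 9 of the 10 and 19 of the 20 brightest miRNAs stayed the same. The largest shift came with normexp at offset 50, which lowered the share of the 10 brightest to 31.6%, of 5p arms to 53.3% and of the let-7 seed to 19.0%, with a median absolute log2 difference between arrays of 0.030; an offset raises dim miRNAs by construction. Under it the leukocyte list held 0.938%, striated muscle 0.391%, embryonic cells 0.248%, endocrine 0.241%, testis 0.168% and liver 0.122%, each over 1.5 times its share with the processed signal. Averaging probes gave 57.0% for 5p arms and 25.0% for let-7, and the software's total signal 57.1% and 25.1%; miR-466b-3p fell to 1.58% under both and left the 10 brightest. With detection on at least 1 array, let-7 held 24.4% and the difference was 0.064. With miRNAs well above background on both arrays, the 10 brightest held 41.3% and let-7 24.8%, 17 arm pairs were left and the difference was 0.082. The difference was 0.058 with medians over spots, 0.12 unscaled and 0.044 after quantile normalization. On 1 array alone, 232 to 239 miRNAs were detected, with 31 to 33 arm pairs, 40.4 to 40.9% in the 10 brightest, 55.6 to 56.4% in 5p arms, 24.39 to 24.5% in let-7 and 14.0 to 14.4% in the kidney epithelium list. Signal over background limits the dimmest miRNAs: negative controls averaged 2.52 on SHAM 1 and 3.01 on SHAM 2, with SDs of 2.76 and 2.48.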

Other observations

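The miRNAs below were picked after their values were seen. miR-494-3p was the brightest detected miRNA of the imprinted Dlk1-Dio3 region, at 978 on SHAM 1 and 1022 on SHAM 2, and 91.1% of it came from 1 of its 2 probes. Its 7 detected neighbours within chr6:134545075-134571136 on the plus strand of GRCr8 were far dimmer. miR-667-3p had 77.6 and 71.8 and miR-539-5p 52.1 and 52.9, while miR-485-3p had 33.7 and 29.0. The dimmest, miR-134-3p, had 28.7 and 20.4.

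miRNAs with low numbers in their names, which were given in order of discovery, were detected more often. Of 123 numbered up to 100, with let-7 counted as 7, 62 (50.4%) were detected and they held 67.3% of the signal. Above 100 and up to 500, 119 of 387 (30.7%) were detected with 27.4%, and above 500 and up to 1000, 17 of 110 (15.5%) with 1.16%. Of 27 numbered above 1000 and up to 3000, 9 (33.3%) were detected with 2.19%, most of it from miR-1224. Above 3000, 21 of 111 (18.9%) were detected with 1.97%, led by miR-3473 at 903 and 852. The median GC content of the detected miRNAs was 45.5% up to 100 and 59.1% above 1000 and up to 3000. The part of base composition in these rates was not tested.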
